A study of Mus musculus with 20 samples.

Results

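This comparison asks how treadmill-trained hindlimb muscle of mice differs in messenger RNA when the clock transcription factor BMAL1 has been removed from muscle. It sets the 5 libraries labelled iMSBmal1KO Exercise Trained against the 5 labelled Vehicle Exercise Trained, which are 10 of the 20 libraries of the series. Knockout columns 1 and 4, and columns 3 and 5, were nearly identical and were summed into 1 sample each, so 8 samples, 5 vehicle and 3 knockout, were compared out of 18. They are called vehicle 1 to 5 and knockout 1+4, 2 and 3+5 below, and both words mean the libraries so labelled. All mice in both groups carried the same alleles, Cre+:iMSBmal1 fl/fl, so the controls also had a floxed Bmal1 gene and a Cre recombinase. The controls had received vehicle and the others had been made inducible, muscle-specific Bmal1 knockouts. Both groups had trained on a treadmill every day for 6 weeks. The 2 sedentary groups of the series, of the same genotype and 5 libraries each, are used only where the knockout effect in trained muscle is set beside that in untrained muscle. The promoter that drives Cre, the inducing agent and the age and sex of the mice are not given in the sources used here. Muscle was taken 48 hours after the last bout by the sample labels and 47 hours by the design text. The label fields disagree on the muscle: the tissue field has tibialis anterior, and the source field, like the design text, has gastrocnemius. "Hindlimb muscle" covers both. Nothing states that the libraries came from separate animals, so p-values measure the spread between these samples, which may be technical.

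BMAL1 pairs with CLOCK, or with its relative NPAS2, and this pair binds E-box elements to switch on the genes of its own repressors, the period and cryptochrome genes. It also drives the REV-ERB receptors, which repress Bmal1 through ROR elements, and the D-box factor DBP. In muscle the clock is known for its hold on glucose use, on the timing of metabolism and on genes of the sarcomere. Endurance training is known to raise mitochondrial content and the capacity to burn fat.

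Total estimated counts ran from 13905274 to 17564810 in the vehicle libraries and from 10610333 to 13079961 in the knockout libraries. Levels are given in counts scaled to a column sum of 1000000 (CPM). The 10 muscle fibre markers listed for the check, Ckm, Acta1 and Myh4 among them, summed to between 67950 CPM (vehicle 2) and 102500 CPM in the trained samples, so each carried the labelled tissue's own RNA at a high level. Vehicle 2 stood far from its group. In this library 3689 of the 14359 genes tested, or 25.7%, differed by over 2-fold from the average of vehicle 1, 3, 4 and 5 on the log2(CPM + 1) scale, against 41 to 476 genes in the other 7 trained samples. Counts of called genes are therefore given with all samples first and then without vehicle 2, and where a gene has a single value its fit is named or, unless stated, is that with all samples. At genes with 1000 to 10000 summed counts, the 2 pairs of knockout columns that were summed differed by 2.38 and 1.75 times the counting noise, and no other pair of libraries by less than 6.38 times. By this measure vehicle 1 was nearer to knockout 2 (15.7 times) than to vehicle 3, 4 or 5 (37.5, 23.3 and 23.1 times). Knockout columns 1 and 4 were nearer to sedentary knockout library 4 (7.15 and 7.36 times) than to knockout column 2 (65.9 and 62.5 times). The cause was not tested.

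Arntl, the gene for BMAL1 (ENSMUSG00000055116), was measured first because it is the targeted gene. It stood at 6.4, 132, 6.4, 6.32 and 6.68 CPM in vehicle 1 to 5 and at 16.1, 8.72 and 8.04 CPM in knockout 1+4, 2 and 3+5. Vehicle 2 was far above every other sample, and all 3 knockout samples lay above the other 4 vehicle samples. With all samples the mean of log2(CPM + 1) differed by -0.21 (two-sided exact permutation test, p = 1), where 5 against 3 samples cannot give a p under 0.0179. Without vehicle 2 the knockout mean was higher by 0.62, and the exact p of 0.0286 was the smallest that 4 against 3 samples can give. The edgeR fit without vehicle 2 likewise called Arntl, the targeted gene, higher in the knockout samples. The table counts reads over the whole gene and the floxed stretch is not given in the labels, so this count does not check whether the deletion took place. Since Arntl RNA was not lower in the knockout samples, it gives no check of the labels, and every direction below is that between libraries as labelled.

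With all samples, 473 of 14359 genes differed between knockout and vehicle trained muscle at an adjusted p under 0.05, which is 3.29% (edgeR's quasi-likelihood test, Benjamini-Hochberg adjustment). Of these, 286 genes (1.99%) were higher in the knockout and 187 (1.3%) were lower. Without vehicle 2 the count was 1244 genes (8.66%), 720 of them higher (5.01%) and 524 lower (3.65%). All 473 genes were also called without vehicle 2, each with the same sign. These genes are written of below as having risen or fallen, and those that passed only without vehicle 2 are marked so. The median absolute log2 change of the called genes was 0.73 for rises and 0.93 for falls with all samples, and 96 rises and 90 falls were past 2-fold. Over all genes tested the median log2 change was -0.03 with all samples and 0.00 without vehicle 2, so a list of genes is read against these values. Knockout and vehicle samples had no overlap for 1142 genes (7.95%) with all samples, 571 higher (3.98%) and 571 lower (3.98%). Without vehicle 2 this held for 2083 genes (14.5%), 862 higher (6.0%) and 1221 lower (8.5%). The counts depended on single samples. Without knockout 3+5 the count of 473 fell to 177, without knockout 2 to 299 and without vehicle 4 to 319. A fit on the 8 trained samples alone called 20 genes, and 378 when vehicle 2 was left out of it. Among the 101 genes followed by name, 72 were called with all samples, and leaving out knockout 3+5, knockout 1+4 or knockout 2 ended 28, 19 or 16 of these calls. The fit on the trained samples alone ended 61 of the 72.

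Changes are given on the log2 scale as knockout minus vehicle, with the standard error of the edgeR fit, first with all samples and then, where a second value follows, without vehicle 2. The largest changes were picked among genes called and without overlap in both fits, so that choice fixed their lack of overlap. They include Nr1d2, Atp5a1, Atp5b, Atp5g3, Plin5, Slc2a3, Tbc1d1, Hk2, Slc25a30, Mb, Casq2, Pln, Mrln, Tcap, Ankrd23, Chrna1 and Actc1. Some named genes share exon sequence with another annotated gene, and as the strand setting of the counts is not given in the sources used here, such reads cannot be told apart. Among them are Arntl, Cry2, Rora, Dbp, Tef, Bhlhe40, Cdkn1a, Mb, Ankrd23, Atp5a1, Cox5a, Ndufs3, Fabp3, Hadha, Acsl1, Mid1ip1, Sorbs3, Stab2, Fn1 and Foxo1.

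**Figure D1:**
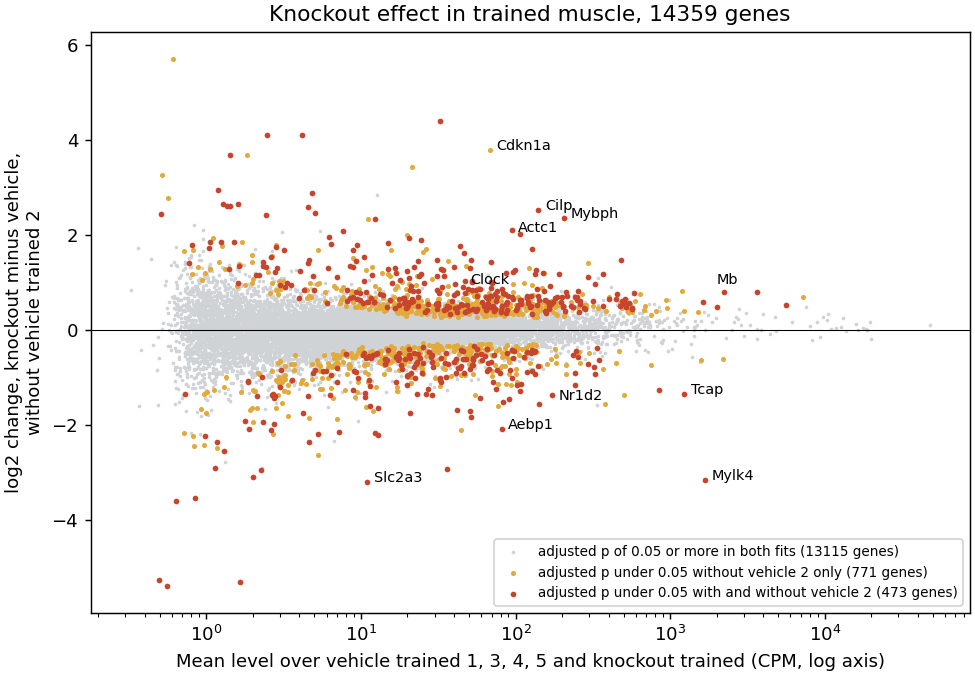
Log2 change between knockout and vehicle trained muscle without vehicle 2 (vertical axis) against the mean level in CPM (horizontal log axis), 1 point per gene. The 473 genes called in both fits (red) and the 771 called only without vehicle 2 (yellow) lie on both sides of 0, and the labelled points include Mylk4 and Slc2a3 below it and Mybph and Cdkn1a above it.

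Among the core clock genes, the period, REV-ERB and E-box repressor genes that passed were lower in the knockout samples, and Clock and Npas2, the partners of BMAL1, were higher. In the positive arm, 1 of 4 genes was called higher with all samples and 3 of 4 without vehicle 2, and none was lower. The 3 were Clock, Npas2 and Arntl itself, the gene that the knockout targets. Clock, the usual partner of BMAL1, stood at 31.9, 54, 31.9, 35.2 and 32 CPM in the vehicle samples and at 78.9, 48.3 and 50.5 CPM in the knockout samples. Only vehicle 2 reached into the knockout range, and the log2 change was 0.70 ± 0.18 (SE, edgeR adjusted p = 0.0369) with all samples and 0.91 ± 0.11 (adjusted p = 3.56e-05) without vehicle 2. Npas2, the other partner, was low in the vehicle samples, at 0.144, 2.11, 0.554, 0.285 and 0.0661 CPM, and at 4.62, 3.44 and 2.2 CPM in the knockout samples. The knockout samples were all higher, the lowest only just above vehicle 2, with a log2 change of 2.41 ± 0.68 (adjusted p = 0.0597, not called) with all samples and 3.67 ± 0.56 (adjusted p = 0.000363) without vehicle 2. Arntl2, a close relative of Arntl, did not pass the test in either fit, with log2 changes of 0.12 ± 0.40 and -0.07 ± 0.36.

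Among the period and cryptochrome repressors, 1 of 5 was called lower with all samples and 3 of 5 without vehicle 2. Per2 stood at 31.5, 36.6, 35.5, 46.1 and 39.5 CPM in the vehicle samples and at 15.2, 14.5 and 13.1 CPM in the knockout samples. The groups did not overlap, and Per2 fell, with a log2 change of -1.37 ± 0.13 (SE, edgeR adjusted p = 7.77e-06), or -1.35 ± 0.12 (adjusted p = 1.25e-06) without vehicle 2. Per3 stood at 41.8, 4.76, 42, 55.7 and 42.5 CPM in the vehicle samples and at 24, 17.5 and 15.9 CPM in the knockout samples. Vehicle 2 was lower than any knockout sample here, so Per3 passed only without it, at -1.19 ± 0.14 (adjusted p = 2.37e-05) against -0.91 ± 0.42 (adjusted p = 0.271). Cry2 stood at 55.5, 776, 58.3, 66.6 and 61.5 CPM in the vehicle samples, with vehicle 2 more than 10 times the others, and at 49.9, 37.2 and 36.3 CPM in the knockout samples. The knockout samples were all lower, and the log2 change was -2.33 ± 0.76 (adjusted p = 0.113) with all samples and -0.50 ± 0.10 (adjusted p = 0.00282) without vehicle 2. Per1 (-0.54 ± 0.27 without vehicle 2, adjusted p = 0.238) and Cry1 (0.20 ± 0.12, adjusted p = 0.335) did not pass in either fit.

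Of the REV-ERB and ROR receptor genes, Nr1d2, Rora and Nr1d1 are described here, and their direction does not stand for the whole list, which is not reported. Nr1d2 and Rora were called lower with all samples, and Nr1d1 as well without vehicle 2. Nr1d2, the gene for REV-ERB beta, stood at 216, 169, 249, 268 and 273 CPM in the vehicle samples and at 93.8, 103 and 78.9 CPM in the knockout samples. All knockout samples were lower, and it fell, with a log2 change of -1.31 ± 0.16 (SE, edgeR adjusted p = 0.000126), or -1.39 ± 0.14 (adjusted p = 3.43e-06). Rora, an activator at the same elements, fell as well, at -1.45 ± 0.36 (adjusted p = 0.0321) and -0.87 ± 0.15 (adjusted p = 0.000897). Nr1d1, the gene for REV-ERB alpha, was lower in all 3 knockout samples (45.3, 43.1 and 41.1 CPM) than in the vehicle samples (61.1, 292, 68.6, 69.5 and 66.6 CPM). It passed only without vehicle 2, at -0.56 ± 0.11 (adjusted p = 0.00239) against -1.36 ± 0.43 (adjusted p = 0.0979), and its exons overlap those of Thra on the opposite strand.

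The D-box factors, which bind a shared element in clock output genes, were 1 of 4 called lower with all samples, and 3 of 4 lower and 1 higher without vehicle 2. The 3 that were lower are activators and the other is a repressor. Dbp, an activator, stood at 110.0, 5.48, 103, 129 and 125 CPM in the vehicle samples and at 32.6, 43 and 33.6 CPM in the knockout samples. Vehicle 2 was the lowest of all, and Dbp passed only without it, at -1.60 ± 0.14 (SE, edgeR adjusted p = 1.25e-06) against -1.30 ± 0.53 (adjusted p = 0.207). Tef stood at 305, 233, 326, 336 and 324 CPM in the vehicle samples and at 201, 148 and 143 CPM in the knockout samples. The groups did not overlap, and Tef fell, with a log2 change of -0.86 ± 0.12 (adjusted p = 0.00062) and -0.92 ± 0.10 (adjusted p = 1.05e-05). Hlf passed without vehicle 2 only, at -1.01 ± 0.16 (adjusted p = 0.00059). Nfil3, the repressor of the set, stood at 36, 505, 23.9, 26.6 and 25.4 CPM in the vehicle samples and at 76.8, 62.1 and 63.8 CPM in the knockout samples. The knockout samples were all above vehicle 1, 3, 4 and 5 and far below vehicle 2, so Nfil3 was higher without it (1.34 ± 0.15, adjusted p = 1.05e-05) and uncalled with the opposite sign with it (-0.90 ± 0.81, adjusted p = 0.602).

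The E-box repressors, which compete at the elements that BMAL1 binds or act on the pair itself, had 1 of 3 called lower with all samples and 2 of 3 without vehicle 2. Bhlhe40 stood at 95.4, 308, 146, 130.2 and 145 CPM in the vehicle samples and at 63.4, 60.7 and 59.1 CPM in the knockout samples. All knockout samples were lower, and it fell, with a log2 change of -1.42 ± 0.29 (SE, edgeR adjusted p = 0.00921) and -1.02 ± 0.15 (adjusted p = 0.000308). Ciart, a repressor of the CLOCK and BMAL1 pair, stood at 4.1, 11.9, 3.75, 4.27 and 4.63 CPM in the vehicle samples and at 2.57, 0.764 and 1.91 CPM in the knockout samples, without overlap. It passed without vehicle 2 (-1.16 ± 0.35, adjusted p = 0.045) and just missed with it (-1.67 ± 0.46, adjusted p = 0.0543). Bhlhe41 did not pass in either fit (-0.47 ± 0.15 without vehicle 2, adjusted p = 0.0611).

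**Figure D2:**
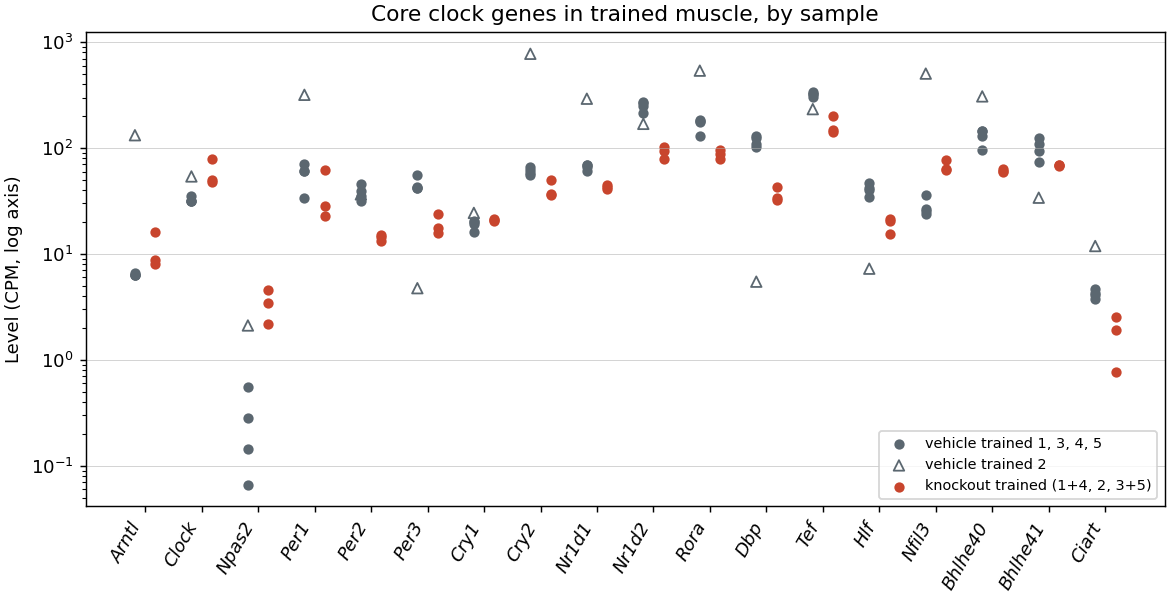
Level of 18 clock genes in each trained sample, in CPM on a log axis, with vehicle 1, 3, 4 and 5 in grey, vehicle 2 as an open triangle and the 3 knockout samples in red. Per2, Nr1d2, Tef and Bhlhe40 show no overlap between the groups, and the open triangle lies far above the rest for Arntl, Cry2 and Nfil3 and far below for Per3 and Dbp.

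The promoters of 4 clock genes, of Met, which fell, and of Wsb1, which rose, show the elements that BMAL1, the ROR and REV-ERB receptors and the D-box factors are known to bind. Each window runs from 250 bases before to 50 after the start site in RefSeq (GRCm38.p6), and the positions below count from that start. Capitals mark the E-box CACGTG, the ROR element core TAGGTCA or the D-box TTANGTAA, searched on both strands. The window of Ciart at chr3:95882179-95882478 (minus strand) holds 3 E-boxes, starting at -116, -58 and -44. The second of the 2 listed starts of Tef, at chr15:81811164-81811463 (plus strand), has an E-box at -138, and its other start at chr15:81802423-81802722 (plus strand) has one at -127. Per3 at chr4:151044616-151044915 (minus strand) holds 2 D-boxes, at -205 and -158. Nfil3 at chr13:52980990-52981289 (minus strand) holds a ROR element core at -12. Arntl holds one at 31, past the start, at 1 of its listed starts. Met, described below among the falls, has an E-box at -126 in its window at chr6:17463707-17464006 (plus strand). Wsb1, among the rises below, has 2 E-boxes, at -219 and -183, in its window at chr11:79254646-79254945 (minus strand) and none at its other listed start. Atp5g3, another rise, has an E-box at -238, and the windows of Dbp, Nr1d1, Nr1d2 and Cry2, which were lower without vehicle 2, hold none of the 3 motifs. Nor do the listed windows of Rora and Hlf, also lower without vehicle 2, or of Clock and Npas2, which were higher without it. Per1, Cry1 and Bhlhe41, which passed in neither fit, have E-boxes at -166, -60 and -153, for Per1 at 1 of its listed starts. The motif was thus also present in clock genes that were not called.
Ciart: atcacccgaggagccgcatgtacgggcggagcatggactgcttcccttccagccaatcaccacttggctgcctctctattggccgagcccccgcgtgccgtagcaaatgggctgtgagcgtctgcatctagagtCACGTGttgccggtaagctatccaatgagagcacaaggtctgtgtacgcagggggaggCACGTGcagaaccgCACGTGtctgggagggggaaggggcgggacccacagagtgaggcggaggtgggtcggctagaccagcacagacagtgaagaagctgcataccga
Tef: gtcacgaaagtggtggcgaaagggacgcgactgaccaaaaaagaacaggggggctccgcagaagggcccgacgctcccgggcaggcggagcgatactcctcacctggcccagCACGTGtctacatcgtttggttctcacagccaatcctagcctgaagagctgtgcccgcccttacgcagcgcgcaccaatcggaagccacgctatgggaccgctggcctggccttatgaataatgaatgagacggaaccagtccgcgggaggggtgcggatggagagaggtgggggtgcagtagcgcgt
Per3: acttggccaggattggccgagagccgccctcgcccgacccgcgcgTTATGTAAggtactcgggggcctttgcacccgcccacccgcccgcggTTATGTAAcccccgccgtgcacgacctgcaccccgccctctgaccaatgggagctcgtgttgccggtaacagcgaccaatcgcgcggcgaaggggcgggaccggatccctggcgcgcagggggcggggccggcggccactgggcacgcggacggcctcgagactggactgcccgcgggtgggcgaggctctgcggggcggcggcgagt
Nfil3: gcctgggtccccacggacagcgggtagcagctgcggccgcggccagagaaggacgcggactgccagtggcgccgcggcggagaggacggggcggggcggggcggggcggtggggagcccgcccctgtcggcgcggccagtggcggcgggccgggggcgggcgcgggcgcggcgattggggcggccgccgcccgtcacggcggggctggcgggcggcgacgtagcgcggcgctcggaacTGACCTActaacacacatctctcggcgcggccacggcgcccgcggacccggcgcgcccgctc
Met: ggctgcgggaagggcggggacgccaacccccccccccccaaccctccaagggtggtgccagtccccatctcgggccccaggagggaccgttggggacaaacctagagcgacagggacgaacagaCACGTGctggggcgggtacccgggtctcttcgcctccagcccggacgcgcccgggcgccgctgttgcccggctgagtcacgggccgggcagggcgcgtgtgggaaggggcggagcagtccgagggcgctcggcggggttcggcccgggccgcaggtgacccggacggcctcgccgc
Wsb1: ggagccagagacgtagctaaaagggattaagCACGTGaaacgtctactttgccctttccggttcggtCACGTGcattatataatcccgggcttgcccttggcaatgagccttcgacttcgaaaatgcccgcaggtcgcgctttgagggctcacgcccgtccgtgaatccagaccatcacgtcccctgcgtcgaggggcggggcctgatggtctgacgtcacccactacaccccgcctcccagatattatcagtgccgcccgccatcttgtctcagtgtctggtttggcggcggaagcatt

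A RefSeq promoter could be matched by symbol to 10313 of the 14359 genes tested. The E-box was present in 11.6% of these, in 15.9% of the genes called lower with all samples (22 of 138) and in 8.41% of those called higher (18 of 214). Without vehicle 2 it was present in 14.8% of the lower genes (57 of 385) and 9.95% of the higher genes (55 of 553). The D-box was in 1.86% of all, in 3.62% of the lower and 2.34% of the higher genes with all samples, and in 3.38% and 1.63% without vehicle 2. The ROR core was in 2.24% of all, in 2.17% of the lower and 2.34% of the higher genes with all samples, and in 1.82% and 2.89% without vehicle 2. These shares count a gene if any of its listed starts has the motif. Over all 32851 promoters in the table, counted by single window, the shares were 7.15%, 2.32% and 2.61% for the E-box, D-box and ROR core. The 2 kinds of share are not like measures. A match of letters is a description of the window and not a bound site.

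A share of the nuclear genes of the respiratory chain rose in knockout trained muscle. Of the 36 complex I nuclear genes, which encode the entry point of electrons from NADH, 10 rose with all samples and 15 without vehicle 2, and none fell. All 36 had a positive log2 change in both fits, with a median of 0.51 in each. Of the 42 complex II to V nuclear genes, 14 rose with all samples and 21 without vehicle 2, none fell, all 42 changes were positive and the median was 0.50. Ndufs3, a core subunit of complex I, stood at 183, 155, 147, 149.8 and 168 CPM in the vehicle samples and at 217, 238 and 239 CPM in the knockout samples. The groups did not overlap, and it rose by 0.57 ± 0.10 (SE, edgeR adjusted p = 0.00394) and 0.58 ± 0.10 (adjusted p = 0.00101). Cyc1, the cytochrome of complex III, stood at 264, 124, 268, 242 and 258 CPM in the vehicle samples and at 392, 358 and 369 CPM in the knockout samples. All knockout samples were higher, at 0.73 ± 0.17 (adjusted p = 0.0199) and 0.59 ± 0.09 (adjusted p = 0.00044). Cox5a, of complex IV, stood at 444, 319.5, 323, 293 and 324 CPM in the vehicle samples and at 473, 590.5 and 602 CPM in the knockout samples, with vehicle 1 closest to the knockout range. It rose by 0.75 ± 0.14 (adjusted p = 0.00394).

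Genes of the ATP synthase also rose. Atp5g3, which makes the ring subunit, stood at 576, 343, 417, 380.0 and 420.5 CPM in the vehicle samples and at 595, 823 and 761 CPM in the knockout samples. Knockout 1+4 was only just above vehicle 1, and the rise was 0.82 ± 0.15 (SE, edgeR adjusted p = 0.00394) or 0.77 ± 0.14 (adjusted p = 0.00198). Atp5a1, the alpha subunit, stood at 1367, 851, 1476, 1189 and 1337 CPM in the vehicle samples and at 2086, 1749 and 1930 CPM in the knockout samples. Atp5b, the beta subunit, stood at 1720, 1426, 1862, 1574 and 1720 CPM and 2487, 2077 and 2333 CPM. Neither overlapped between the groups, and they rose by 0.67 ± 0.15 (adjusted p = 0.0201) and 0.51 ± 0.13 (adjusted p = 0.0439). Further rises were found for Ndufb3 of complex I (0.71 ± 0.14, adjusted p = 0.00704) and Sdhc of complex II (0.58 ± 0.11, adjusted p = 0.00822).

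The mean of log2(CPM + 1) over the 36 complex I nuclear genes was 7.53, 6.93, 6.91, 7.0 and 7.08 in vehicle 1 to 5 and 7.27, 7.74 and 7.63 in knockout 1+4, 2 and 3+5. Vehicle 1 thus lay above knockout 1+4, and the other 4 vehicle samples lay below all 3 knockout samples. As given above, vehicle 1 was also nearer to knockout 2 than to its own group. The counts of called genes rest on few samples: without knockout 3+5, 1 complex I gene and 2 genes of complexes II to V were called. For the slow fibre genes, described below, the mean of log2(CPM + 1) was 6.47, 5.52, 5.61, 5.03 and 5.25 in vehicle 1 to 5. In the knockout samples it was 6.54, 6.46 and 6.44. Vehicle 1 was high in both lists, but the other samples ranked differently. Knockout 1+4 was the lowest knockout sample for complex I and the highest for slow fibre genes. Whether the make-up of fibre types bears on the respiratory genes was not tested. Of the 13 mitochondrially encoded genes of the same complexes, 0 passed in either fit by edgeR, 0 by DESeq2 or limma, and 0 had an unadjusted p under 0.05. Their median log2 change was 0.15 and 0.11.

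**Figure D3:**
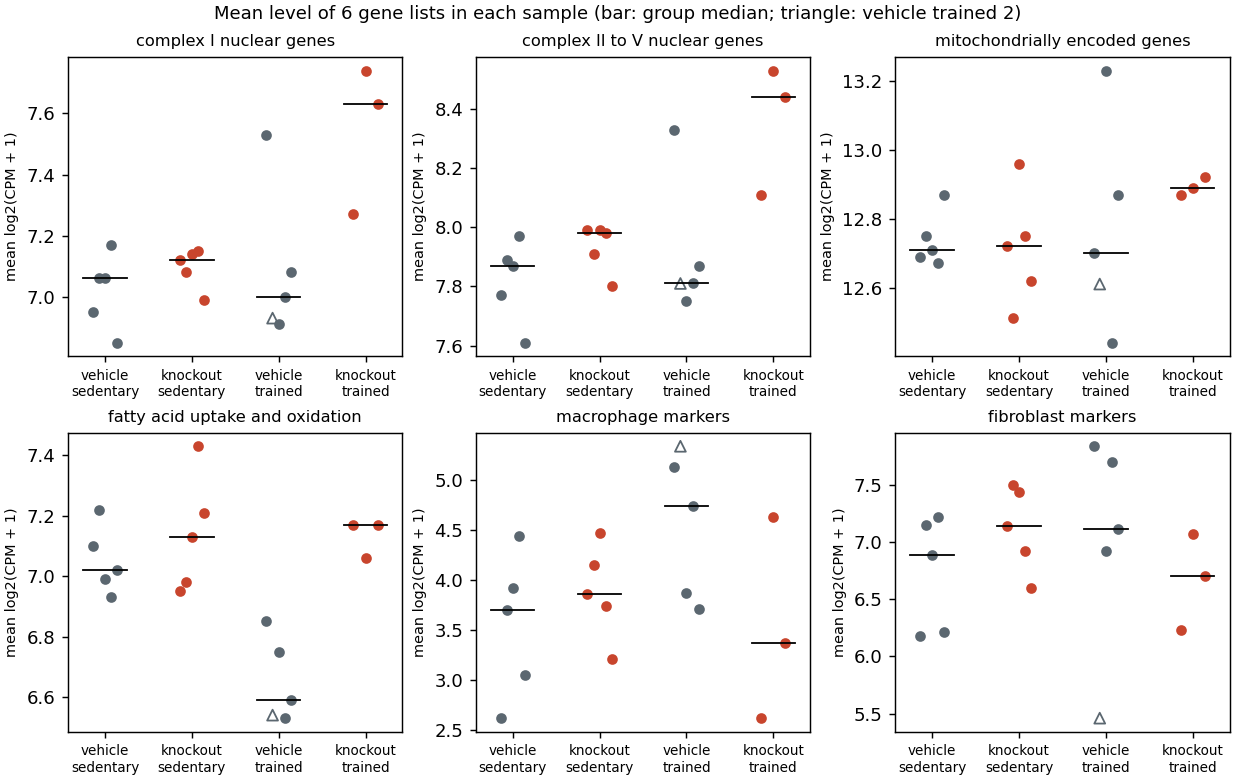
Mean of log2(CPM + 1) over the genes of 6 lists in each of the 18 samples, by group, with a bar at the group median and an open triangle for vehicle trained 2. The complex I means of the knockout trained samples (7.27 to 7.74) lie above those of the knockout sedentary samples (6.99 to 7.15), while the marker lists of macrophages and fibroblasts spread widely within the trained groups.

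Genes of fatty acid uptake and oxidation rose in part, and here the list means did not overlap. Of the 28 genes, 11 rose with all samples and 13 without vehicle 2, none fell, and the median log2 change was 0.50 and 0.44. The mean of log2(CPM + 1) over the list was 6.53 to 6.85 in the vehicle samples and 7.06 to 7.17 in the knockout samples, so the lowest knockout sample lay above the highest vehicle sample. The sedentary samples lay between 6.93 and 7.22 (vehicle) and between 6.95 and 7.43 (knockout), so the vehicle trained samples were below all others. Acadm, the medium-chain acyl-CoA dehydrogenase, stood at 237, 144, 258, 191 and 223 CPM in the vehicle samples and at 426, 409 and 432 CPM in the knockout samples. The groups were far apart, and it rose by 1.04 ± 0.15 (SE, edgeR adjusted p = 0.000806) and 0.95 ± 0.13 (adjusted p = 8.48e-05). Fabp3, which carries fatty acids through the fibre, stood at 400.1, 249, 220.4, 140.5 and 166 CPM in the vehicle samples and at 426, 508 and 566 CPM in the knockout samples. Vehicle 1 came closest to the knockout samples, and the rise was 1.13 ± 0.27 (adjusted p = 0.025). Its pseudogene Fabp3-ps1 and the pseudogene Hadhb-ps stand in the table, so how reads were shared with Fabp3 and Hadhb is uncertain. Hadhb, a subunit of the trifunctional protein of beta-oxidation, rose by 0.90 ± 0.16 (adjusted p = 0.00325), and its partner Hadha by 0.63 ± 0.17 (adjusted p = 0.0462). Slc27a1, a fatty acid transporter, rose by 0.87 ± 0.19 (adjusted p = 0.0183), and Acsl1, which activates fatty acids for use, by 0.77 ± 0.17 (adjusted p = 0.0195). Etfa, which passes electrons on from the acyl-CoA dehydrogenases, rose by 0.60 ± 0.12 (adjusted p = 0.00849). Leaving out knockout 3+5 left 2 genes of fatty acid uptake and oxidation called.

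Plin5, which coats lipid droplets beside mitochondria, was the sole rise with all samples among 26 genes of triglyceride synthesis and lipolysis. It stood at 10.1, 13.1, 10.5, 5.92 and 8.72 CPM in the vehicle samples and at 33.1, 27.1 and 36.2 CPM in the knockout samples. The lowest knockout sample was more than 2 times the highest vehicle sample, and the log2 change was 1.76 ± 0.24 (SE, edgeR adjusted p = 0.000354) and 1.93 ± 0.22 (adjusted p = 1.57e-05).

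Of 18 citric acid cycle enzymes, 5 rose with all samples and 7 without vehicle 2, all 18 changes were positive, and the median was 0.37 and 0.35. Their mean of log2(CPM + 1) was 7.71 to 8.17 in the vehicle and 8.25 to 8.45 in the knockout trained samples. In sedentary muscle it was 8.19 to 8.39 (vehicle) and 8.16 to 8.42 (knockout), so here too the vehicle trained samples were the low group. Sucla2, the ATP-forming subunit of succinyl-CoA synthetase, stood at 338, 226, 394, 317 and 379.9 CPM in the vehicle samples and at 583, 497 and 523 CPM in the knockout samples. No vehicle sample reached the knockout range, and it rose by 0.73 ± 0.14 (SE, edgeR adjusted p = 0.00657). Ldhb, the lactate dehydrogenase subunit of oxidative tissue, stood at 179.5, 74.8, 139.9, 73.7 and 92.5 CPM in the vehicle samples and at 276, 225 and 284 CPM in the knockout samples. It rose by 1.26 ± 0.27 (adjusted p = 0.015), and a pseudogene, Ldhb-ps, is listed beside it. Branched-chain amino acid breakdown had 2 rises among 20 genes with all samples, 6 without vehicle 2, and no fall. Among 26 endurance regulators, the PGC-1, ERR, PPAR and AMPK genes included, Nrip1, a corepressor of nuclear receptors, fell. It stood at 77, 124, 81.8, 92.5 and 95.9 CPM in the vehicle samples and at 32.3, 30.9 and 28.5 CPM in the knockout samples. The knockout samples were all below the lowest vehicle sample, at -1.59 ± 0.18 (adjusted p = 6.34e-05) and -1.44 ± 0.14 (adjusted p = 2.97e-06). Esrra, the gene for ERR alpha, a driver of mitochondrial genes, passed only without vehicle 2 (0.40 ± 0.11, adjusted p = 0.0246), and the other 24 regulators passed in neither edgeR fit. DESeq2 called 3 of the 26 endurance regulators lower with all samples, and 2 lower and 1 higher without vehicle 2.

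Some genes of glucose entry and trapping fell. Among 28 genes of glucose uptake and glycogen, 3 fell with all samples and 4 without vehicle 2, and none rose, with a median log2 change of -0.17 and -0.11. Slc2a3, the glucose transporter GLUT3, stood at 16.2, 11.4, 20.2, 22.3 and 20.5 CPM in the vehicle samples and at 2.32, 2.9 and 1.2 CPM in the knockout samples. The highest knockout sample was far below the lowest vehicle sample, and the log2 change was -3.07 ± 0.29 (SE, edgeR adjusted p = 8.22e-06) and -3.20 ± 0.25 (adjusted p = 4.11e-07). Tbc1d1, which restrains GLUT4 vesicles until muscle contracts, stood at 65.9, 35.3, 97.7, 78.2 and 82.1 CPM in the vehicle samples and at 27.4, 18.5 and 19.4 CPM in the knockout samples. Vehicle and knockout samples stood apart, and it fell, with a log2 change of -1.69 ± 0.27 (adjusted p = 0.00146) and -1.84 ± 0.21 (adjusted p = 1.13e-05). Hk2, which phosphorylates glucose on entry, stood at 321, 1729, 478, 498 and 435 CPM in the vehicle samples and at 258, 186 and 210.1 CPM in the knockout samples. All knockout samples were lower, vehicle 2 was far above the rest, and the log2 change was -1.67 ± 0.43 (adjusted p = 0.0391) with it and -0.93 ± 0.17 (adjusted p = 0.00137) without it. Ppp1r3a, the glycogen-targeting subunit of protein phosphatase 1, passed only without vehicle 2 (-0.75 ± 0.15, adjusted p = 0.0045).

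The glycolytic enzymes were mixed, with 2 higher and 1 lower of 18 called with all samples and 3 higher and 2 lower without vehicle 2. The 1 lower with all samples was Hk2, already counted among the genes of glucose uptake and glycogen. Pfkm, the muscle phosphofructokinase, was lower without vehicle 2 (-0.62 ± 0.15, adjusted p = 0.0126) and uncalled with it (-0.39 ± 0.33, adjusted p = 0.573). Slc16a1, the lactate transporter MCT1, stood at 50, 121, 71.7, 41.7 and 62.7 CPM in the vehicle samples and at 36.1, 31 and 29.6 CPM in the knockout samples. Each knockout sample was lower, and it fell, with a log2 change of -1.10 ± 0.28 (SE, edgeR adjusted p = 0.0391). Mpc1, of the mitochondrial pyruvate carrier, passed only without vehicle 2 (-0.47 ± 0.14, adjusted p = 0.0467), and a pseudogene of it is listed. Slc25a30, a mitochondrial carrier, stood at 55.2, 11.4, 51.7, 93.4 and 55.9 CPM in the vehicle samples and at 6.98, 10.9 and 6.27 CPM in the knockout samples. Vehicle 2 lay just above the highest knockout sample and the other vehicle samples far above, with a log2 change of -2.67 ± 0.45 (adjusted p = 0.00222) and -2.93 ± 0.28 (adjusted p = 2.22e-06).

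Of 17 slow fibre genes, 3 rose with all samples, 5 without vehicle 2, and none fell. The list mean of log2(CPM + 1) was 5.88 to 6.39 in vehicle sedentary and 6.01 to 6.72 in knockout sedentary samples. In trained muscle it was 5.03 to 5.61 in vehicle 2 to 5, below all sedentary samples, and 6.44 to 6.54 in the knockout samples. The median log2 change was 0.87 and 0.79. The 3 were Mb, Casq2 and Pln, which are not parts of the contractile filaments. Sln and Tnni1 passed only without vehicle 2, and Tnni1 alone of the 5 is a contractile gene. Of 16 fast fibre genes, 1 rose with all samples and 3 without vehicle 2, with a median of 0.30 and 0.22. Mb, the oxygen store myoglobin, stood at 3459, 1064, 3164, 1849 and 2460 CPM in the vehicle samples and at 5332, 4261 and 4095 CPM in the knockout samples. The knockout samples were all higher, and Mb rose by 0.96 ± 0.25 (SE, edgeR adjusted p = 0.0439). Casq2, the slow and cardiac calsequestrin, stood at 32.9, 7.27, 26.8, 13.3 and 21 CPM in the vehicle samples and at 79, 62.3 and 65.6 CPM in the knockout samples. The groups were well apart, at 1.80 ± 0.30 (adjusted p = 0.00222). Tnni1, slow troponin I, stood at 44.3, 17.8, 17.4, 10.2 and 10.1 CPM in the vehicle samples and at 39.9, 59.1 and 59.4 CPM in the knockout samples. Vehicle 1 lay within the knockout range, and Tnni1 passed only without vehicle 2 (1.45 ± 0.43, adjusted p = 0.0435). Of the fast fibre genes, Tnnc2, fast troponin C, rose by 0.60 ± 0.16 (adjusted p = 0.0494), while Mylpf (0.69 ± 0.20, adjusted p = 0.0406) and Myoz3 (0.59 ± 0.12, adjusted p = 0.00525) passed only without vehicle 2.

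Of 22 genes of calcium release and its control, 4 rose with all samples and 7 without vehicle 2, and none fell. They include 3 small membrane proteins known to restrain the calcium pump SERCA. Pln, phospholamban, stood at 5.89, 0.737, 3.89, 3.41 and 4.43 CPM in the vehicle samples and at 23.4, 7.12 and 13.2 CPM in the knockout samples. All knockout samples were higher, at 2.03 ± 0.40 (SE, edgeR adjusted p = 0.00708) and 1.79 ± 0.30 (adjusted p = 0.000814), and its exons overlap those of Cep85l on the opposite strand. Mrln, myoregulin, stood at 89.3, 44.9, 41.4, 53.1 and 70.1 CPM in the vehicle samples and at 117, 254 and 208 CPM in the knockout samples, without overlap. It rose by 1.76 ± 0.24 (adjusted p = 0.000337) and 1.70 ± 0.24 (adjusted p = 0.000155). Sln, sarcolipin, stood at 5.25, 13, 1.97, 3.64 and 4.23 CPM in the vehicle samples and at 31.6, 11.5 and 11.8 CPM in the knockout samples. Vehicle 2 lay within the knockout range, and Sln passed only without it (2.33 ± 0.47, adjusted p = 0.00377).

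Mylk4, a muscle myosin light chain kinase gene in none of the lists, was named after its values were seen because its change was large at a high level. It stood at 2145, 50.3, 3146, 3520 and 3352 CPM in the vehicle samples and at 240.0, 382 and 341 CPM in the knockout samples. Vehicle 1, 3, 4 and 5 were all far above the knockout samples and vehicle 2 was below every one of them. It fell, with a log2 change of -2.85 ± 0.73 (SE, edgeR adjusted p = 0.0389) with all samples and -3.16 ± 0.25 (adjusted p = 4.11e-07) without vehicle 2.

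Of 25 titin and Z-disc genes tested, 2 rose and 1 fell with all samples, and 3 rose and 1 fell without vehicle 2. Tcap, which caps titin at the Z-disc and is known as a target of BMAL1, stood at 2049, 900.5, 1657, 1645 and 1868 CPM in the vehicle samples and at 604, 752 and 644 CPM in the knockout samples. All knockout samples were lower, and Tcap fell, with a log2 change of -1.23 ± 0.21 (SE, edgeR adjusted p = 0.00231) and -1.36 ± 0.16 (adjusted p = 1.57e-05). Ankrd23, a titin-binding stretch-sensor protein, stood at 1749, 1091, 1547, 1579 and 1814 CPM in the vehicle samples and at 2902, 2799 and 2589 CPM in the knockout samples. It rose without overlap, at 0.87 ± 0.13 (adjusted p = 0.000853) and 0.79 ± 0.10 (adjusted p = 5.67e-05). Myom3, an M-band protein, rose by 1.21 ± 0.29 (adjusted p = 0.0275), with knockout 1+4 at 73.4 CPM and the other knockout samples at 28.3 and 36.2 CPM.

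Of 21 denervation-linked and developmental genes tested, 3 rose with all samples, and 7 were higher and 1 lower without vehicle 2. The median log2 change was 0.16 with all samples and 0.44 without vehicle 2. Chrna1, the alpha subunit of the acetylcholine receptor, stood at 9.49, 9.38, 10.4, 9.68 and 13.3 CPM in the vehicle samples and at 34.6, 41.4 and 37.5 CPM in the knockout samples. The groups were far apart, and it rose by 1.90 ± 0.18 (SE, edgeR adjusted p = 8.22e-06) and 1.89 ± 0.18 (adjusted p = 2.97e-06). Chrnb1, the beta subunit, rose by 1.24 ± 0.29 (adjusted p = 0.0232), with knockout 1+4 at 127 CPM, well above the others at 42.4 and 55.8 CPM. Actc1, the cardiac and fetal actin, stood at 31.4, 3.04, 38.4, 41.9 and 37.4 CPM in the vehicle samples and at 124, 156 and 175 CPM in the knockout samples. It rose by 2.39 ± 0.44 (adjusted p = 0.00433) and 2.10 ± 0.19 (adjusted p = 1.25e-06), with vehicle 2 below all others. Cdkn1a, the cell cycle inhibitor p21, stood at 11.3, 801, 9.72, 7.57 and 9.25 CPM in the vehicle samples and at 207, 89.4 and 86.9 CPM in the knockout samples. The 3 knockout samples lay far above vehicle 1, 3, 4 and 5 and far below vehicle 2. The log2 change was 3.79 ± 0.25 (adjusted p = 9.27e-08) without vehicle 2 and -0.46 ± 1.16 (adjusted p = 0.879) with it, so vehicle 2 decided both its sign and its call.

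Among 23 myogenic transcription factors tested, 3 rose in each fit and none fell. Tead4, a factor of muscle precursors, stood at 2.95, 9.58, 2.95, 2.62 and 3.57 CPM in the vehicle samples and at 15, 12.4 and 9.45 CPM in the knockout samples. Vehicle 2 lay just above the lowest knockout sample, and Tead4 rose by 1.51 ± 0.32 (SE, edgeR adjusted p = 0.0131) and 2.08 ± 0.15 (adjusted p = 2.84e-07). Mafa, of the large Maf family, stood at 32.2, 8.19, 41.4, 37.9 and 42.9 CPM in the vehicle samples and at 134, 80.5 and 86.6 CPM in the knockout samples. It rose by 1.66 ± 0.31 (adjusted p = 0.00496), and Nfix, which drives the fetal programme of myoblasts, by 0.43 ± 0.11 (adjusted p = 0.0474).

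Some growth signals fell. Of 22 genes, 3 fell with all samples and 4 without vehicle 2, none rose, and the median log2 change was -0.49 and -0.19. Mstn, the growth inhibitor myostatin, stood at 129, 159, 168, 232 and 188 CPM in the vehicle samples and at 96.9, 92.4 and 80.2 CPM in the knockout samples. There was no overlap, and it fell, with a log2 change of -0.92 ± 0.17 (SE, edgeR adjusted p = 0.0039) and -0.93 ± 0.17 (adjusted p = 0.00137). Igf1, a growth promoter, stood at 61.3, 51.7, 61.7, 72.6 and 51.6 CPM in the vehicle samples and at 24.5, 41.1 and 27.8 CPM in the knockout samples. It fell, with a log2 change of -0.89 ± 0.20 (adjusted p = 0.0201), so members of opposite known action fell together. Smad3, which relays myostatin and related signals, fell, with a log2 change of -0.66 ± 0.17 (adjusted p = 0.0433). Igfbp5, an IGF-binding protein, stood at 772, 21.6, 709, 874 and 598 CPM in the vehicle samples and at 251, 258 and 296 CPM in the knockout samples. Vehicle 2 was lowest of all, and Igfbp5 passed only without it (-1.38 ± 0.16, adjusted p = 2.21e-05).

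Of 26 glucocorticoid and stress response genes, 3 fell with all samples and none rose, and 4 were lower and 2 higher without vehicle 2. Their sum was 11600 CPM in vehicle 2 and 1522 to 1993 CPM in the other trained samples. The median log2 change was -0.94 with all samples and 0.00 without vehicle 2, where 13 of the 26 changes were positive. The 3 falls described here thus do not stand for the list, and Cdkn1a, described above, was among the 2 higher. Fkbp5 and Tsc22d3 are induced by the glucocorticoid receptor, and Nr3c1 encodes that receptor. Fkbp5 stood at 57.3, 186, 48.5, 51.8 and 61.5 CPM in the vehicle samples and at 18.9, 36.3 and 28 CPM in the knockout samples, and fell, with a log2 change of -1.52 ± 0.40 (SE, edgeR adjusted p = 0.0439) and -0.90 ± 0.20 (adjusted p = 0.00758). Tsc22d3 stood at 430.0, 891, 256, 393 and 411 CPM and 216, 238 and 186 CPM, and fell, with a log2 change of -1.13 ± 0.29 (adjusted p = 0.0404) and -0.73 ± 0.16 (adjusted p = 0.00841). Nr3c1 was lower in all 3 knockout samples, at -0.38 ± 0.10 (adjusted p = 0.0453). The knockout samples were below every vehicle sample for all 3 genes.

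The 31 proteasome subunit genes depended on vehicle 2 as a group. With all samples 0 passed by edgeR, DESeq2 or limma, 1 had an unadjusted p under 0.05 and the median log2 change was -0.16. In the fit without vehicle 2, 12 were higher, none was lower and the median was 0.32. Psmc4, of the regulatory cap, stood at 57.7, 234, 53.6, 55.8 and 55.1 CPM in the vehicle samples and at 77.8, 66.5 and 71.5 CPM in the knockout samples. The knockout samples lay above vehicle 1, 3, 4 and 5 and far below vehicle 2, and the log2 change was 0.44 ± 0.08 (SE, edgeR adjusted p = 0.00196) without it against -0.34 ± 0.39 (adjusted p = 0.698). Of 24 atrophy, FOXO and autophagy genes, which summed to 18550 CPM in vehicle 2 and to 2744 to 3056 CPM in the other trained samples, 1 fell with all samples. This was Mstn. Without vehicle 2, Foxo1, a master factor of this programme, was also lower (-0.40 ± 0.10, adjusted p = 0.0174).

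Calls of matrix genes are read against the 1.3% of all genes tested called lower with all samples and the 3.65% without vehicle 2. Of 42 laminin, integrin and remodelling genes tested, 1 fell with all samples and 5 were lower without vehicle 2, none rose, and the median log2 change was -0.37 and -0.38. Without vehicle 2 their share called lower was above that of all genes. At an unadjusted p under 0.05 (edgeR), 14 and 16 of the 42 were lower, against 1268 and 1484 of all 14359 genes. DESeq2 called 3 lower with all samples and 12 without vehicle 2, and limma 1 and 4. Adamts1, a secreted protease that cuts proteoglycans, stood at 48.5, 90.0, 55.7, 65 and 57.4 CPM in the vehicle samples and at 37.9, 27.3 and 27.4 CPM in the knockout samples. Both groups kept to separate ranges, and it fell, with a log2 change of -1.01 ± 0.19 (SE, edgeR adjusted p = 0.00564) and -0.82 ± 0.13 (adjusted p = 0.00065). Fn1, fibronectin, stood at 156, 29.2, 107, 181 and 78.4 CPM in the vehicle samples and at 53, 71.6 and 42.1 CPM in the knockout samples. Vehicle 2 was lowest, and Fn1 passed only without it (-1.16 ± 0.32, adjusted p = 0.0289), as did the protease Adamts5 (-0.86 ± 0.26, adjusted p = 0.0462) and Tnxb, tenascin X (-0.76 ± 0.23, adjusted p = 0.0468). Of 31 collagen chains, 0 passed with all samples by edgeR, DESeq2 or limma (2 at an unadjusted p under 0.05), and 1 was lower without vehicle 2. Of the marker lists of other cells, macrophage and fibroblast markers had negative medians (-0.76 and -0.57 with all samples, -0.69 and -0.69 without vehicle 2). The medians of the adipocyte, endothelial, Schwann cell, blood, satellite cell, smooth muscle and tendon lists were positive, from 0.05 to 0.47 with all samples and from 0.05 to 0.35 without vehicle 2. All 9 macrophage markers tested had negative changes in both fits, with 0 passing by edgeR or limma, 1 by DESeq2, and 3 at an unadjusted p under 0.05 with all samples. Their sum was 180.3 to 477.5 CPM in the vehicle samples and 63.7, 362.8 and 123.4 CPM in the knockout samples. The 10 fibroblast markers summed to 2873 to 5804 CPM in the vehicle samples and to 1889, 3599 and 2754 CPM in the knockout samples, with none of these markers at 0 in any trained sample and 1 of them, Pi16, lower without vehicle 2 (-1.15 ± 0.35, adjusted p = 0.0467). Their part in the matrix result was not tested, and fewer cells of a type cannot be told apart from less RNA per cell in whole tissue.

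Of all genes tested, 1.99% were called higher and 1.3% lower with all samples, and 5.01% and 3.65% without vehicle 2. Among 28 ion channel genes of the fibre membrane, 2 rose and 1 fell with all samples, and 4 were higher and 1 lower without vehicle 2. Kcnc4, a fast potassium channel, stood at 44.5, 68.4, 43.6, 48 and 41.8 CPM in the vehicle samples and at 29.4, 23.7 and 24.9 CPM in the knockout samples, and fell, with a log2 change of -0.89 ± 0.16 (SE, edgeR adjusted p = 0.00409). Its knockout samples were all below its vehicle samples. Among 30 heat shock and chaperone genes, 0 passed with all samples by edgeR, DESeq2 or limma (5 at an unadjusted p under 0.05), and 2 were higher without vehicle 2. Among 22 hypoxia pathway genes, 0 passed with all samples by any of the 3 tools (3 unadjusted), and 1 was lower without vehicle 2. Without vehicle 2, the chaperone calls and the lower calls of ion channel and hypoxia genes were near the shares of all genes. Among 30 MHC and interferon-linked genes, 0 passed by edgeR or limma in either fit and 1 passed by DESeq2 (1 unadjusted).

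The largest rises by fold, among genes separate and called in both fits with at least 10 CPM in the higher group, included genes of several kinds beside those above. Mybph, a myosin-binding protein, stood at 66.3, 24.3, 42.6, 94.7 and 76 CPM in the vehicle samples and at 462, 204 and 361 CPM in the knockout samples. Every knockout sample was more than 2 times the highest vehicle sample, and the log2 change was 2.55 ± 0.32 (SE, edgeR adjusted p = 0.000205) and 2.36 ± 0.27 (adjusted p = 1.72e-05). Its exons overlap those of Adora1 on the opposite strand. Dupd1, a muscle dual-specificity phosphatase, stood at 37.5, 46.6, 43.6, 45.2 and 47.1 CPM in the vehicle samples and at 220.5, 151 and 138 CPM in the knockout samples, and rose by 1.98 ± 0.18 (adjusted p = 7.77e-06). Cilp, a matrix protein of cartilage and heart, stood at 44.2, 20.4, 41.5, 43 and 36.2 CPM in the vehicle samples and at 585, 66.7 and 68.6 CPM in the knockout samples. Its log2 change of 2.67 ± 0.56 (adjusted p = 0.0124) rests mostly on knockout 1+4, without which it was 0.98 and did not pass. Wsb1, a substrate receptor of a ubiquitin ligase, stood at 16, 27.1, 19.5, 22 and 23.9 CPM in the vehicle samples and at 88.8, 49.2 and 62.6 CPM in the knockout samples, and rose by 1.65 ± 0.20 (adjusted p = 0.000107). The other rises in this set were Srrm4os (2.29 ± 0.36, adjusted p = 0.0015), an antisense gene that shares exons with Srrm4, and Golga7b (1.75 ± 0.20, adjusted p = 6.54e-05). By the difference in CPM rather than fold, Ttll7, a tubulin polyglutamylase, joined Mb, Ankrd23 and the ATP synthase genes, at 203, 366, 282, 287 and 282 CPM in the vehicle samples and 765, 684 and 642 CPM in the knockout samples (1.32 ± 0.18, adjusted p = 0.000337).

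The largest falls by the same measure began with Slc2a3 and Slc25a30. Aebp1, a matrix-bound carboxypeptidase-like protein, stood at 125, 183, 107, 178 and 124 CPM in the vehicle samples and at 26.4, 32.6 and 30.3 CPM in the knockout samples. The lowest vehicle sample was more than 3 times the highest knockout sample, and the log2 change was -2.22 ± 0.19 (SE, edgeR adjusted p = 7.77e-06) and -2.08 ± 0.16 (adjusted p = 4.11e-07). Dkk3, a secreted protein of the Dickkopf family, stood at 24.7, 9.84, 15.3, 20.6 and 25.1 CPM in the vehicle samples and at 4.63, 3.13 and 5.07 CPM in the knockout samples, and fell, with a log2 change of -2.09 ± 0.29 (adjusted p = 0.000419). Met, the receptor for hepatocyte growth factor whose promoter E-box is shown above, stood at 17, 14.3, 23.6, 18.1 and 20.3 CPM in the vehicle samples and at 5.73, 5.89 and 6.32 CPM in the knockout samples. The knockout samples lay close together and below all vehicle samples, at -1.60 ± 0.16 (adjusted p = 2.29e-05). Mid1ip1, which promotes fatty acid synthesis through acetyl-CoA carboxylase, stood at 78.2, 51.8, 75.6, 76 and 86.3 CPM in the vehicle samples and at 26.8, 23.8 and 18.9 CPM in the knockout samples, and fell, with a log2 change of -1.63 ± 0.17 (adjusted p = 2.32e-05). Sorbs3, the adhesion protein vinexin, fell, with a log2 change of -2.03 ± 0.27 (adjusted p = 0.000337). Stab2, a scavenger receptor of endothelial cells, fell, with a log2 change of -1.76 ± 0.27 (adjusted p = 0.00119), and the endothelial markers had 1 rise, no fall and summed to 269.4 to 339.8 CPM in the vehicle and 282.3 to 432.8 CPM in the knockout samples. Tmem132b, Tmem100 and 1700001O22Rik made up the rest, at -2.01 ± 0.37, -1.64 ± 0.32 and -2.13 ± 0.31. By the difference in CPM, Clip1, a microtubule-binding protein (-1.58 ± 0.29, adjusted p = 0.00394), Gpcpd1, a phosphodiesterase of choline metabolism (-0.80 ± 0.14, adjusted p = 0.0031), and Vldlr, a lipoprotein receptor (-0.86 ± 0.20, adjusted p = 0.0254), joined Tcap, Hk2 and Nr1d2.

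**Figure D4:**
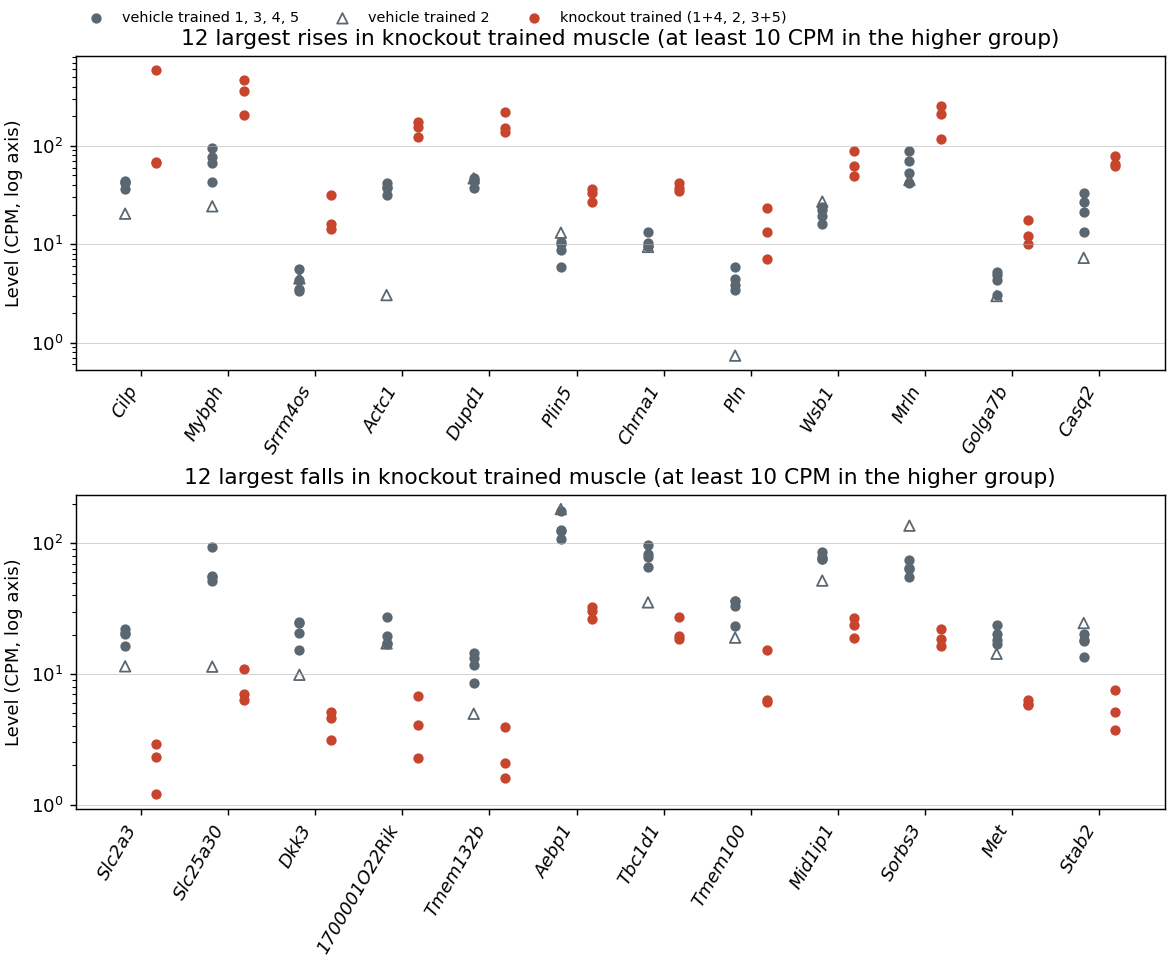
Level in each trained sample, in CPM on a log axis, of the 12 largest rises (upper panel) and 12 largest falls (lower panel) among genes called and separate in both fits with at least 10 CPM in the higher group. Red knockout samples and grey vehicle samples do not overlap for any of these genes, which the choice of genes fixed, and 1 knockout sample of Cilp stands far above the other 2.

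The knockout effect was measured separately in sedentary muscle, which shares no sample with the trained comparison, although both draw on 1 estimate of the spread. There 334 genes were called with all samples (2.33%), 146 higher (1.02%) and 188 lower (1.31%). When vehicle trained 2 was left out of the fit, 1002 were called (6.98%), 451 higher (3.14%) and 551 lower (3.84%). The sedentary groups did not overlap for 1350 genes (9.4%). Of the trained calls, 188 were also called in sedentary muscle, which is 39.7% of the trained and 56.3% of the sedentary list, all with the same sign. The share was 53.5% of the trained falls (100 of 187) and 30.8% of the trained rises (88 of 286). Without vehicle trained 2, it was 58.2% of the falls (305 of 524) and 36.2% of the rises (261 of 720). No gene passed the test of the difference between the 2 knockout effects (edgeR, smallest adjusted p = 0.604 with all samples and 0.212 without vehicle trained 2), and 1076 and 1643 genes had an unadjusted p under 0.05, or 7.49% and 11.4%. A gene called in 1 training state and not in the other is therefore not shown to differ between them.

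Clock genes passed in sedentary muscle too. Without vehicle trained 2, the log2 change in sedentary muscle was -1.08 ± 0.10 (SE, edgeR adjusted p = 4.65e-07) for Per2, -1.77 ± 0.12 (adjusted p = 1.85e-08) for Dbp and 1.21 ± 0.09 (adjusted p = 8.08e-08) for Clock. For Slc2a3 it was -2.92 ± 0.20 (adjusted p = 2.5e-08), for Mylk4 -2.49 ± 0.19 (adjusted p = 6.07e-08), for Tcap -1.88 ± 0.13 (adjusted p = 2.5e-08), for Aebp1 -1.81 ± 0.13 (adjusted p = 2.96e-08) and for Cdkn1a 3.77 ± 0.21 (adjusted p = 4.56e-09). All 8 of these genes thus passed in both states without vehicle trained 2. With all samples the sedentary change of Cdkn1a did not pass (adjusted p = 0.105), and the other 7 did. The respiratory genes had other values there. Of the 36 complex I nuclear genes, 0 passed in sedentary muscle by edgeR in either fit and 0 had an unadjusted p under 0.05. Of the 42 complex II to V nuclear genes, 0 passed and 1 had an unadjusted p under 0.05 without vehicle trained 2. Their sedentary medians without vehicle trained 2 were 0.02 and 0.04, against 0.51 and 0.50 in trained muscle. In the test of the difference, 20 of the 36 and 20 of the 42 genes had an unadjusted p under 0.05 without vehicle trained 2, each with the larger value in trained muscle, where all genes gave 11.4%. With all samples it was 19 of 36 and 19 of 42, where all genes gave 7.49%. This was not particular to the respiratory genes. Without vehicle trained 2 it was 20 of 28 for fatty acid uptake and oxidation and 12 of 18 for citric acid cycle enzymes. For branched-chain amino acid breakdown it was 13 of 20. With all samples these were 15 of 28, 13 of 18 and 6 of 20, and all had the larger value in trained muscle. For fibroblast markers and collagen chains these counts depended on vehicle trained 2. Without it 8 of 10 fibroblast markers and 14 of 31 collagen chains had an unadjusted p under 0.05, with the lower value in trained muscle, and with all samples 2 of 10 and 3 of 31. For laminin, integrin and remodelling genes it was 23 of 42 without vehicle trained 2 and 15 of 42 with all samples. Each of these also had the lower value in trained muscle. For fatty acid uptake and oxidation the sedentary median was 0.05 with 1 gene higher and 1 lower, and for slow fibre genes it was -0.10 with 3 higher and 1 lower. Of the genes named above, Cyc1 had the smallest unadjusted p for the difference between states, 4.65e-05 without vehicle trained 2, with a sedentary change of -0.05 ± 0.08, and this did not pass adjustment. Plin5 passed in sedentary muscle only without vehicle trained 2, at 0.72 ± 0.18 (adjusted p = 0.0174, against 0.0992 with all samples), and its trained change was 1.93. Acadm likewise passed only without it, at 0.40 ± 0.11 (adjusted p = 0.0244, against 0.193), with 0.95 in trained muscle. Fn1 was at 0.45 ± 0.26 (adjusted p = 0.398) against -1.16, so its sign differed, and Mstn at -0.42 ± 0.13 (adjusted p = 0.067) against -0.93.

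**Figure D5:**
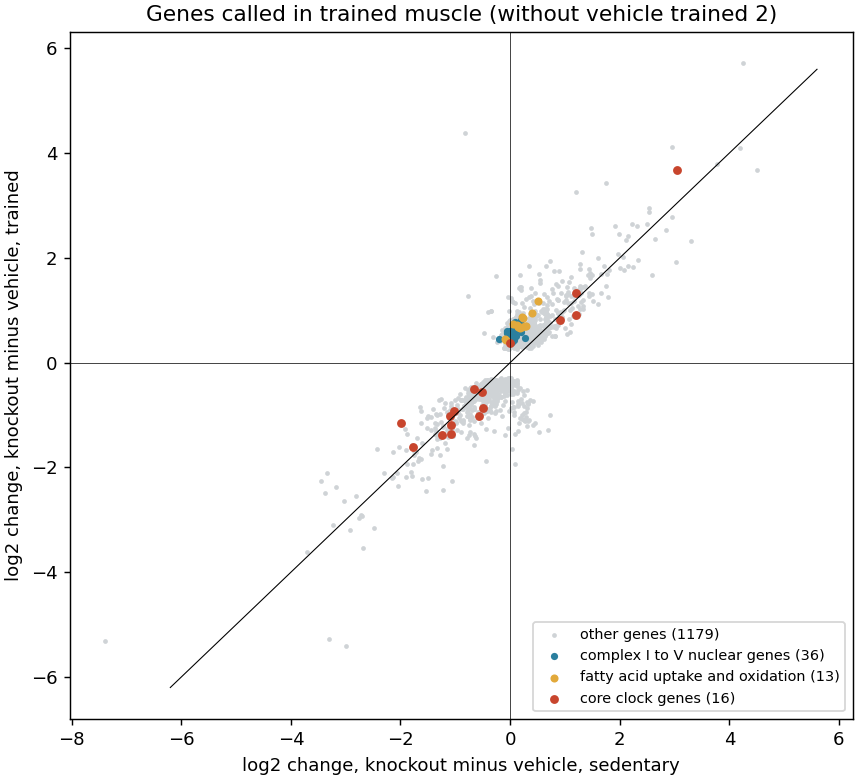
Log2 knockout effect in trained muscle (vertical axis) against that in sedentary muscle (horizontal axis), both without vehicle trained 2, for the 1244 genes called in trained muscle, with the line of equal effects. The 16 clock genes called (red) lie on both sides of 0, and the 36 called genes of complexes I to V (blue) lie above 0 in trained muscle, with sedentary values between -0.20 and 0.27.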

How the data were processed

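Muscle RNA of 20 libraries was sequenced after Trizol and column extraction, per the labels' protocols. The authors deposited 1 table of estimated counts per gene, of which 72.0% are whole, although the table's name calls them CPM. The submitters' processing notes name Partek, STAR 2.7.8a, DESeq2 and the builds mm10 and GRCm39 without saying which step used which, so no coordinates were taken from the table. Near-identical knockout columns were summed, estimated counts were rounded, and genes that reached 1 CPM in 5 or more of the 20 libraries were kept (14359 of 21844). edgeR 4.0.16 in R 4.3.3 (TMM, quasi-likelihood test, 4 group means over 18 samples, two-sided, Benjamini-Hochberg adjusted p under 0.05) was run with and without vehicle trained 2. SE was taken as the log2 change over the square root of F. The fit without vehicle trained 2 was listed as an alternative and is printed throughout because that library stands apart.

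Alternatives were leaving out each sample, all 20 libraries as separate, a replicate block, trained groups alone, DESeq2 1.42.0 and its size factors, limma 3.58.1 on log2(CPM + 1), and no filter. Named genes were Arntl, members of the gene lists, the 12 largest rises and 12 largest falls among genes called and separate in both fits with at least 10 CPM in the higher group, the 6 largest rises and 6 largest falls by the difference in CPM. Mylk4 was named after its values were seen, and a few list members are not reported here. Members and lists were chosen with earlier results of these data known. Some genes stand in several lists and are counted in each, Hk2, Casq2, Pln and Sdhc among them. Depth of 10610333 to 19153527 per library limits precision for genes near 1 CPM. The numbers of the replicates did not pair the trained samples.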

Additional observations from a re-analysis of the deposited data

Results flagged for a closer look

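A sample far from the rest of its group was looked for among the 5 vehicle trained samples in 101 genes and 6 list means, 107 groups in all, of which chance alone would mark about 1 in 20, or 5.35. By the gap between the farthest sample and its nearest neighbour over the group's range, 34 were marked, 32 genes and 2 list means, and 27 of them were marked by vehicle trained 2. Since the genes share this library, the marks are not independent.

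In the clock, vehicle trained 2 stood high for Arntl (132.3 CPM), Clock (53.97 CPM), Npas2 (2.114 CPM), Per1 (318.4 CPM), Cry2 (776.5 CPM), Nr1d1 (292.4 CPM), Rora (538.4 CPM), Nfil3 (504.8 CPM), Bhlhe40 (307.6 CPM) and Ciart (11.89 CPM). It stood low for Per3 (4.756 CPM) and Dbp (5.479 CPM). Outside the clock it stood high for Hk2 (1729 CPM), Cdkn1a (800.7 CPM), Tead4 (9.579 CPM), Fkbp5 (185.8 CPM), Tsc22d3 (890.9 CPM), Psmc4 (234.4 CPM), Kcnc4 (68.37 CPM), Sorbs3 (136.3 CPM), Clip1 (840.3 CPM) and Foxo1 (376.3 CPM). The same library stood low for Cyc1 (124.4 CPM), Actc1 (3.039 CPM), Esrra (27.35 CPM), Nfix (164.2 CPM) and Myoz3 (14.07 CPM).

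Vehicle trained 1 stood high for Ndufb3 (126.7 CPM), Cox5a (444.0 CPM) and Tnni1 (44.3 CPM), and for the mean of log2(CPM + 1) over complex I nuclear genes (7.526) and complex II to V nuclear genes (8.327). Vehicle trained 5 stood high for Chrna1 (13.35 CPM) and 1700001O22Rik (27.3 CPM). For Chrna1 and 1700001O22Rik the knockout samples did not overlap the vehicle range despite this.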

How the results depend on the processing

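Of the 101 named genes, 72 were called with all samples and 97 without vehicle trained 2. The count of genes called in trained muscle, knockout against vehicle, was 473 with all samples and ran from 177 to 1244 when each sample was left out in turn, from 110 to 720 for higher genes and from 67 to 524 for lower genes. The lowest of these were without knockout 3+5, and without knockout 2 the count was 299 (103 lower), without knockout 1+4 384 (109 lower) and without vehicle 4 319 (188 higher). It was 1225 (642 higher, 583 lower) with 20 libraries taken as separate, 907 (517 higher, 390 lower) by DESeq2, and 20 (11 higher, 9 lower) on the trained groups only. When vehicle trained 2 is left out, the count of 1244 ran from 612 to 1477 over a further sample left out (344 to 878 higher, 268 to 625 lower), with 612 without knockout 3+5, 722 without vehicle 4 (395 higher, 327 lower) and 1477 without vehicle 1 (852 higher, 625 lower), and was 378 (178 higher, 200 lower) on the trained groups only. The knockout effect in sedentary muscle ran from 307 to 1002 calls when 1 choice was changed at a time, the highest without vehicle trained 2. No setting run gave a call in the test of trained against sedentary effects (edgeR), where 623 to 2087 genes had an unadjusted p under 0.05. Counts with DESeq2 size factors in edgeR (479), limma (476) and no filter (377) stayed within 1.5 times the count of 473. The causes of these shifts were not tested.

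The replicate block, fitted over 20 separate libraries, called 980 genes (554 higher, 426 lower). Same-numbered trained samples deviated with correlations of -0.395, 0.045, -0.167, -0.012 and -0.031, so the numbers do not pair them, and no number's samples correlated best with each other in both directions.

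The sign reversed for 5 genes without vehicle trained 2: Arntl (0.81, or 0.62 as the difference of mean log2 values), Arntl2 (-0.07), Nfil3 (1.34), Cdkn1a (3.79) and Psmc4 (0.44). Arntl2 also reversed without knockout 1+4 (-0.15) and without knockout 2 (-0.04). Nfil3 and Cdkn1a reversed under the replicate block (0.19 and 2.04) and in limma (0.47 and 2.30). Over the single samples left out, the lowest and highest values were -0.50 and 0.62 for the difference of mean log2 values of Arntl (-0.43 without vehicle 4), and -1.87 and 0.81 for its fitted change (-1.84 without vehicle 1). They were -0.15 and 0.50 for Arntl2 (0.39 without vehicle 3), -1.16 and 1.34 for Nfil3, -0.89 and 3.79 for Cdkn1a (-0.77 without vehicle 5), and -0.48 and 0.44 for Psmc4. The cause was not tested. Genes near 1 CPM, Npas2 and Ciart among them, have few counts per sample, and the 3 knockout samples limit every comparison.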
